A study of Mus musculus with 4 samples.

Results

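Hepatic stellate cells and their mesenchymal relatives were followed through 10 genes: Des, Acta2, Pdgfra, Pdgfrb, Reln, Lrat, Dcn, Ngfr, Hgf and Lhx2. They were taken by name, and every non-control probe whose transcript belongs to one of them was used, which gave 14 probes of the 56605 on the array and 10 of the 22907 genes with a named probe. The study compared livers of C57BL/6J mouse fetuses at 14.5 days post coitum (dpc) whose dams were fed a control diet (CD, 4.3% of energy as fat) or a high-fat diet (HFD, 60% of energy as fat) while pregnant, and the comparison asks what maternal HFD consumption changed in the fetal liver. RNA from 2 CD and 2 HFD samples, described as biological replicates, was labeled and bound to 1 single-color array each. How many fetuses or dams stand behind an array is not given in the sources used here, and the labels name no engineered allele in either group.

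Stellate cells lie between the liver sinusoids and the hepatocytes. In the adult they store vitamin A as retinyl esters, and after injury they turn into contractile cells that lay down matrix. In the fetal liver they arise from mesenchyme under the mesothelium, and mesenchymal cells there send growth factors such as HGF to hepatoblasts and support blood formation. The 10 genes cover these roles: a filament and an actin (Des, Acta2), receptors for growth factors (Pdgfra, Pdgfrb, Ngfr), secreted proteins (Hgf, Reln, Dcn), the enzyme that esterifies retinol (Lrat) and a transcription factor (Lhx2).

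The promoters of the genes were read from RefSeq (build GRCm38.p6), and entries for 8 of the 10 genes were used (Dcn and Pdgfrb were not). Acta2 and Des, an actin and a filament gene, were brighter on CD replicate 1 than on CD replicate 2, and Reln went the other way. Whether promoter motifs bear on these levels was not tested. The 250 bases before the start of each of these 3 genes are shown. They lie at chr19:34255374-34255623 (minus strand), chr1:75360042-75360291 (plus strand) and chr5:22344706-22344955 (minus strand), in the strand of the gene. Capitals mark CArG boxes with 1 C or G in the core (Acta2) and GGGCGG, the GC box that Sp1 binds, or its complement (Des, Reln).
Acta2: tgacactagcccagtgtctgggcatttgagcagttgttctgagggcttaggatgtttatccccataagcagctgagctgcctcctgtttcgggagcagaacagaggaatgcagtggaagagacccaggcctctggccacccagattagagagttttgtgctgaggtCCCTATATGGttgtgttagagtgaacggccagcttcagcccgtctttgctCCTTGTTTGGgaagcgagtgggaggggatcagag
Des: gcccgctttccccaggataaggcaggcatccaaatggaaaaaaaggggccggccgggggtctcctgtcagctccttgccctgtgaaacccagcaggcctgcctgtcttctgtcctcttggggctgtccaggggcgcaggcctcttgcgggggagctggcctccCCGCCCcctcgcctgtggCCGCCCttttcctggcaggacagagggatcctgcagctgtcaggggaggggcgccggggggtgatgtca
Reln: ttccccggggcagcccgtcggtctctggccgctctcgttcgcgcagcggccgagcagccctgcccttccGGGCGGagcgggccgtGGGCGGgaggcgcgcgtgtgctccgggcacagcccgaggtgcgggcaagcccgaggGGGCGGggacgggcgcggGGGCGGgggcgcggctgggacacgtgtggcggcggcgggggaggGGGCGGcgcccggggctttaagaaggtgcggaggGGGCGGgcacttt
The CArG box is the site of serum response factor, which drives actin genes in muscle. On windows of 300 bases (250 before and 50 after the start) and both strands, 0 of the 8 genes had a CArG box in the strict form, which 1.63% of 32851 mouse promoter windows had. Acta2 had 2 with 1 C or G in the core, whose first bases lay 84 and 34 bases before the start, and Lrat had 1, at 223 bases. That form was in 8.50% of all windows. GGGCGG occurred 6 times in the window of Reln, 4 times in that of Ngfr and in 1 of the 2 windows of Lhx2, and 2 times in those of Des and Lrat, against 35.7% of all windows with at least 1 match. The windows of Acta2, Hgf and Pdgfra and the second Lhx2 window had 0 matches.

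Each level below is the log2 of a probe's intensity relative to the 75th percentile of its array, so 0 is that percentile and 1 unit is 2-fold. Levels are compared between arrays for 1 probe, never between probes. On every array all 14 probes of the 10 genes stood well above background, and all passed the filters on dim and variable probes, which left 41332 probes (18201 genes) to test. The slide and the scan were the same for every array. The labels call every sample female, without saying whether this is the dam or the fetus, but 7 of 7 probes of the Y-linked genes Ddx3y, Eif2s3y, Kdm5d and Uty were well above background on CD replicate 1 and HFD replicate 1 and 0 of 7 on the replicate 2 arrays. Xist was well above background on the replicate 2 arrays alone, with levels of -0.65 (CD) and -0.74 (HFD) against -8.29 and -6.84. Replicate number and this sex-linked difference cannot be told apart, so the differences within each number are given with the results. Markers of liver parenchyma and red cells were bright in both groups: in CD, Alb had levels of 8.14 and 9.06 against 8.53 and 8.54 in HFD, and Hba-a1 levels of 9.07 and 9.65 against 9.22 and 9.33.

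None of the 10 stellate and mesenchymal genes differed between livers from HFD-fed and CD-fed dams beyond the spread between arrays. Probes were called here at a 2-fold difference, the line drawn in the study, together with an unadjusted p under 0.05, the kind of p behind the array calls not being stated, and limma called 0 of 14 probes, beside 0.293% of all tested probes called higher and 0.477% called lower in HFD. At an unadjusted p under 0.05 alone it was again 0 of 14, beside 3.35% of all tested probes, and after Benjamini-Hochberg adjustment 0 of 14, beside 0% of all (adjusted p = 1.00 for each of the 14). The test that the methods name also gave 0 of 14 at an unadjusted p under 0.05. By the brightest probe of each gene, 7 genes were lower and 3 (Dcn, Hgf, Lhx2) higher in HFD, with differences from -0.26 to 0.11, and after quantile normalization Lrat and Dcn changed sign. The median difference was -0.074 for the 10 genes and 0.039 for all tested genes. In whole liver, fewer cells of a type and less RNA per cell cannot be told apart.

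The filament and actin genes varied mainly between the CD arrays. Desmin, encoded by Des, is the intermediate filament protein of muscle and a classic marker of stellate cells in rodents. Des had levels of -0.08 and -1.0 on CD replicates 1 and 2 and of -0.69 and -0.58 on HFD replicates 1 and 2. Both HFD arrays lay between the CD arrays, and the difference of -0.099 (SE 0.35, n = 2 arrays per group; 0.934-fold, 95% interval 0.493 to 1.77) did not pass the test (limma, unadjusted p = 0.788). Acta2 encodes smooth muscle alpha-actin, found in vessel walls and in activated stellate cells. Its brightest probe had levels of 5.99 and 5.32 in CD and 5.24 and 5.64 in HFD. CD replicate 1 was highest and HFD replicate 1 lowest, the groups overlapped, and the difference was -0.22 (SE 0.30; 0.859-fold, 95% interval 0.491 to 1.5, limma unadjusted p = 0.505). A second Acta2 probe had levels of 4.16 and 4.03 in CD and 3.87 and 4.04 in HFD. The third, dimmer probe had levels of 0.07 and -1.15 in CD and -0.65 and -0.15 in HFD. The diet differences were -0.14 at the second and 0.14 at the third, so the probes did not share a sign, and all 3 had CD replicate 1 as the highest array.

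Pdgfrb was the gene whose arrays separated by diet, by a narrow margin. The PDGF receptors are tyrosine kinases that drive growth and migration of mesenchymal cells, the beta receptor above all in pericytes and stellate cells. Pdgfrb had levels of 2.23 and 1.78 in CD and of 1.76 and 1.72 in HFD. Both HFD arrays lay below both CD arrays, by a gap between CD replicate 2 and HFD replicate 1 that was small beside the distance between the CD arrays. It was the 1 probe of 14 whose groups did not overlap with HFD lower, beside 11.1% of all tested probes, and 0 of 14 lay apart with HFD higher, beside 19.5%. The difference was -0.26 (SE 0.22; 0.833-fold, 95% interval 0.557 to 1.24, limma unadjusted p = 0.286). Pdgfra, the receptor that marks fibroblasts and portal mesenchyme, had levels of 2.68 and 2.01 in CD and 2.35 and 2.07 in HFD, so both HFD arrays lay between the CD arrays (difference -0.13, SE 0.29; 0.911-fold, 95% interval 0.536 to 1.55). Ngfr encodes the p75 neurotrophin receptor, present on stellate cells and on neural crest cells. Its levels were 2.34 and 1.94 in CD and 1.87 and 2.13 in HFD, with CD replicate 1 highest and HFD replicate 1 lowest (difference -0.14, SE 0.22; 0.909-fold, 95% interval 0.602 to 1.38).

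**Figure D1:**
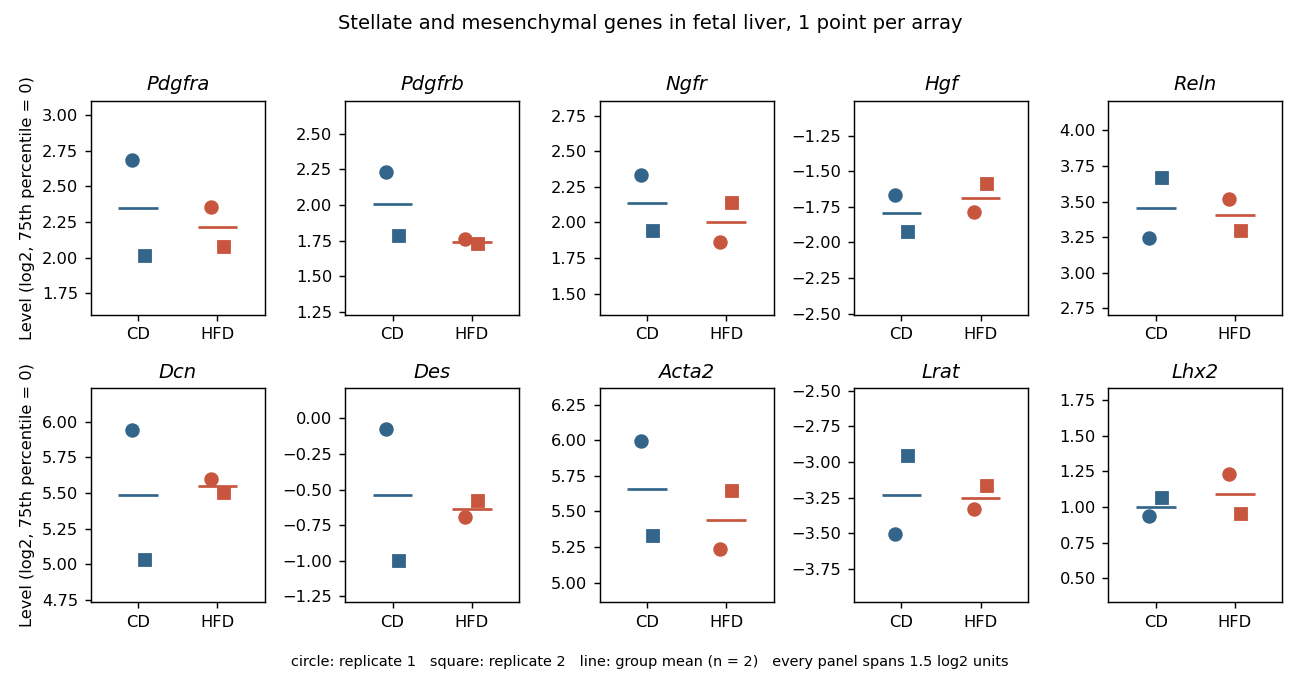
Level of each gene on each of the 4 arrays (log2, the 75th percentile of the array set to 0; brightest probe of each gene), with CD in blue, HFD in red, circles for replicate 1, squares for replicate 2 and a line at the mean of each group (n = 2). The HFD points lie closer together than the CD points for 9 of 10 genes, and the points of the diets separate for Pdgfrb alone.

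Among the secreted proteins the diets differed little, and probes of 1 gene did not always move alike. HGF, made by mesenchymal cells, is the growth factor of hepatoblasts and hepatocytes and acts through the receptor MET. The brighter Hgf probe had levels of -1.67 and -1.93 in CD and -1.78 and -1.59 in HFD, with a difference of 0.11 (SE 0.19; 1.08-fold, 95% interval 0.759 to 1.53). The dimmer Hgf probe had levels of -3.14 and -2.77 in CD and -2.99 and -3.23 in HFD, a difference of -0.16 (SE 0.22). The groups overlapped at both probes, and the CD array that was higher at one was lower at the other. Reelin, a glycoprotein first known from neuron migration, is made by stellate cells in the liver. The brighter Reln probe had levels of 3.24 and 3.67 in CD and 3.52 and 3.29 in HFD (difference -0.048, SE 0.22; 0.967-fold, 95% interval 0.640 to 1.46). The second had levels of -2.68 and -1.75 in CD and -2.47 and -2.70 in HFD (difference -0.37, SE 0.36). At both Reln probes CD replicate 2 was the highest array and HFD replicate 1 was above HFD replicate 2.

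Decorin, encoded by Dcn, is a small leucine-rich proteoglycan that binds collagen fibrils and TGF-beta. Dcn had levels of 5.94 and 5.03 in CD and 5.60 and 5.50 in HFD. The HFD arrays were close to each other and sat between the CD arrays, which differed 1.88-fold. The difference between the diets was 0.063 (SE 0.34; 1.04-fold, 95% interval 0.556 to 1.96, limma unadjusted p = 0.862), and its sign turned to -0.067 after quantile normalization.

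Lrat and Lhx2, genes tied to the quiescent stellate cell, also overlapped between the diets. LRAT esterifies retinol for storage in lipid droplets. Lrat had levels of -3.51 and -2.96 in CD and -3.33 and -3.17 in HFD, and both HFD arrays again lay between the CD arrays (difference -0.018, SE 0.25; 0.988-fold, 95% interval 0.627 to 1.56). LHX2 is a LIM homeobox factor that restrains stellate cell activation in the developing mouse liver. Lhx2 had levels of 0.94 and 1.07 in CD and 1.23 and 0.95 in HFD, and was the 1 gene of 10 whose HFD arrays differed more than its CD arrays (difference 0.087, SE 0.19; 1.06-fold, 95% interval 0.752 to 1.5).

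**Figure D2:**
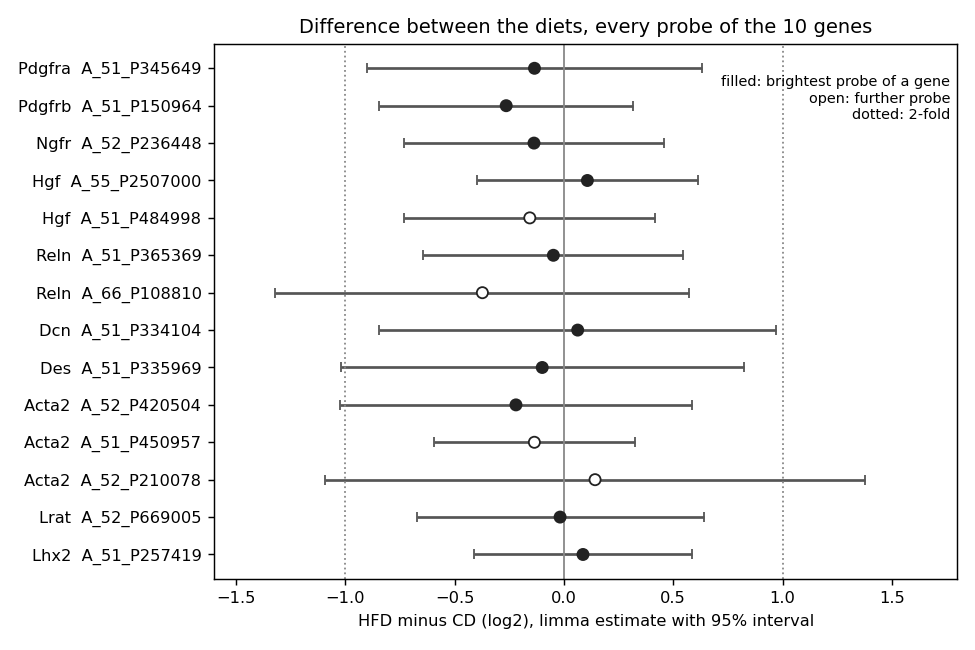
Difference between the diets (HFD minus CD, log2) for all 14 probes of the 10 genes, as limma estimates with 95% intervals; filled points are the brightest probe of a gene, open points further probes, and dotted lines mark 2-fold. Every interval crosses 0, and the estimates run from -0.37 at the second Reln probe to 0.14 at the third Acta2 probe.

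The limma intervals bound the size of a change only as far as limma's moderated spread holds. That spread borrows from all tested probes, and intervals from the 2 arrays per group alone were not computed. Whether a 2-fold change could have gone unseen without this moderation is therefore not settled. At the brightest probe, the limma 95% interval lay within 2-fold in both directions for 8 of the 10 genes. For Des and Acta2 this interval reached just past 2-fold lower. Over all probes the limma interval lay within 2-fold for 10 of 14, since the third Acta2 probe ran from 0.469 to 2.60-fold and the second Reln probe from 0.401 to 1.49-fold. With 2 arrays per group an exact permutation test of a single gene cannot give a two-sided p below 0.333, and the number of arrays limits the precision.

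The spread between the CD arrays was larger than the difference between the diets for all 10 genes. The share over all genes was not counted, so this is not read as particular to the 10. The spread also had a direction. This pattern was chosen after the values were seen and is given with no test. CD replicate 1 was above CD replicate 2 for 7 of 10 genes (Des, Acta2, Pdgfra, Pdgfrb, Dcn, Ngfr and Hgf), beside 44.5% of all tested genes, and at least 1.5-fold above it for 4 (Des, Dcn, Pdgfra and Acta2), beside 14.2%. The largest of these gaps were 1.90-fold at Des and 1.88-fold at Dcn, followed by 1.59-fold at Pdgfra and at Acta2. The other three, Reln, Lrat and Lhx2, ran the other way, with CD replicate 2 above CD replicate 1 by 1.34-fold, 1.46-fold and 1.09-fold. The median gap between CD replicates 1 and 2 was 0.43 over the 10 genes and -0.064 over all genes, and after quantile normalization 7 of the 10 genes still had CD replicate 1 above, against 48.1% of all genes. The HFD arrays showed no such gap, with medians of -0.036 and 0.025. The CD arrays differed more than the HFD arrays for 9 of 10 genes, beside 78% of all genes, and both HFD arrays lay between the CD arrays for 5 of 10 (Des, Pdgfra, Reln, Lrat and Dcn), beside 39.8%, so neither count stood far from that of genes at large.

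For most of the genes the sign of the diet difference depended on which arrays were compared. Between the replicate numbers both the CD and the HFD array change, so these differences do not single out either. Within replicate 1, HFD was below CD for 7 of 10 genes, with a median of -0.34 (all genes 0.092), and the gaps were widest at Acta2 (-0.76) and Des (-0.62). Within replicate 2, HFD was below CD for 4 of 10, with a median of 0.13 (all genes 0.023), and Acta2 and Des had differences of 0.32 and 0.42. Pdgfrb alone kept its sign in both numbers (-0.47 and -0.058), which is 1 of 10 genes lower in both, beside 14.2% of all genes. The share of all genes with opposite signs was not counted, so the sign change is not read as particular to the 10. Dcn showed the same dependence on 1 array in the fit. Without CD replicate 1 it was higher in HFD (0.52, limma unadjusted p = 0.0236), and without CD replicate 2 it was lower (-0.39, unadjusted p = 0.0467). Des (-0.56, unadjusted p = 0.0210) and Pdgfrb (-0.49, unadjusted p = 0.0217) also passed an unadjusted p of 0.05 without CD replicate 2, as did the second Reln probe without CD replicate 1 (-0.84, unadjusted p = 0.0153). In these fits 14.8% (without CD replicate 2) and 20.8% (without CD replicate 1) of all probes had an unadjusted p under 0.05, and the smallest adjusted p of the 14 probes was 0.22.

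**Figure D3:**
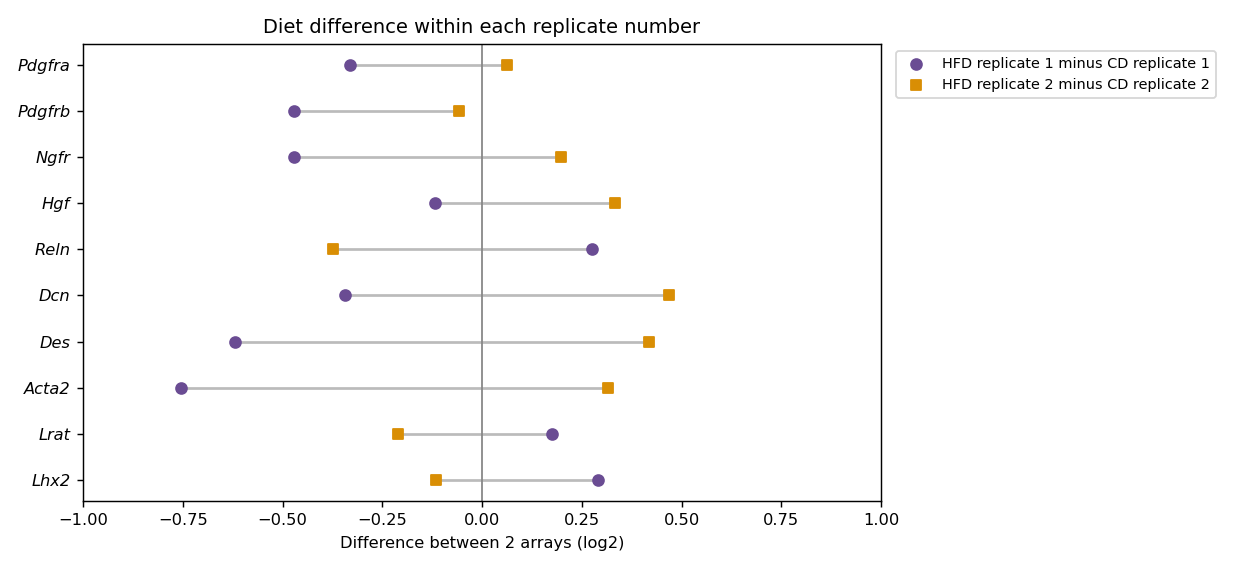
Difference between the HFD and the CD array of the same replicate number (log2), circles for replicate 1 and squares for replicate 2, for the brightest probe of each gene. The 2 differences have opposite signs for 9 of 10 genes, and both are below 0 for Pdgfrb. The share of all genes with opposite signs was not counted.

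Genes around the 10 were read in 9 lists with 107 genes, of which 104 were tested: retinoid handling, PDGF ligands and relatives, HGF receptor and activation, reelin receptors, neurotrophins, mesenchymal transcription factors, contractile and pericyte genes, small leucine-rich proteoglycans and other stellate cell genes. Of these 104 genes, 0 passed the cutoffs and 0 had an unadjusted p under 0.05 in limma. By sign 49 were higher in HFD, the median difference was -0.011, and differences ran from -0.61 to 0.70. The arrays of the diets did not overlap for 7 of the 104 genes with HFD higher, beside 23% of all tested genes, and for 3 with HFD lower, beside 10.1%.

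The smallest unadjusted p among the 104 was 0.0574, at Gfap, a glial filament also used as a stellate cell marker. Gfap had levels of -0.95 and -1.07 in CD and -0.50 and -0.66 in HFD (difference 0.43, SE 0.17, limma adjusted p = 1.00). Its unadjusted p was 0.0417 with quantile normalization, 0.0483 with the filter on probes well above background and 0.0495 with the test that the methods name, so that it then passed 0.05, and 0.153 with the replicate block. Wt1, a transcription factor of mesothelium and of the stellate cells that descend from it, had levels of 1.84 and 0.68 in CD and 2.07 and 1.86 in HFD (difference 0.70, SE 0.42). Its difference rested on CD replicate 2: it was 0.12 without that array and 1.28 without CD replicate 1. The median difference was 0.038 for mesothelial genes and 0.64 for genes of kidney and gonad stroma. Which cells gave the Wt1 signal was not tested. Cspg4, the NG2 proteoglycan of pericytes, had levels of 0.21 and -0.49 in CD and -0.73 and -0.63 in HFD (difference -0.54, SE 0.28; -0.18 without CD replicate 1 and -0.89 without CD replicate 2). Mcam, an adhesion molecule of pericytes and endothelium, had levels of 5.89 and 6.10 in CD and 6.35 and 6.20 in HFD (difference 0.28, SE 0.18). These pericyte genes thus lay apart in opposite directions.

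The other genes named by the same rule differed less or varied more within a diet. Dhrs3, a retinaldehyde reductase, had a difference of -0.039 (SE 0.16). Flt3, a receptor kinase of the PDGF receptor family, had a difference of 0.10 (SE 0.16). Fmod, the proteoglycan fibromodulin, had levels of -0.80 and -0.78 in CD and -0.84 and -1.52 in HFD, and Vipr1, a receptor for vasoactive intestinal peptide, levels of -0.94 and -0.96 against -0.90 and -0.47. In both, HFD replicate 2 carried most of the difference.

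The gap between the CD arrays ran through most of these lists as well. CD replicate 1 was above CD replicate 2 for 82 of the 104 genes (78.8%) and for 83 after quantile normalization. It was above for 17 of 18 mesenchymal transcription factors (median gap 0.96), 15 of 16 contractile and pericyte genes (0.73), 9 of 9 neurotrophins and their receptors (0.44), 10 of 13 retinoid handling genes (0.44), 14 of 20 other stellate cell genes (0.42) and 6 of 8 small leucine-rich proteoglycans (0.34). For PDGF ligands and relatives it was 4 of 7 (0.27), and for the reelin receptors and their adaptor 3 of 3 (0.24). In the HFD arrays the median gaps of these 8 lists ran from -0.17 to 0.21. Genes of HGF activation, several of which are made by hepatocytes, were the exception, with 4 of 10 above and a median gap of -0.22.

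Most markers of other tissues moved in the same way between the CD arrays. CD replicate 1 was above CD replicate 2 for 17 of 18 skeletal and cardiac muscle genes (median gap 0.69), 14 of 14 genes of neurons and neural crest (0.65), 9 of 13 mesothelial genes (0.49), 9 of 11 genes of kidney and gonad stroma (0.73) and 6 of 6 of gut mesenchyme (0.57), and for 4 of 7 placental genes (0.30). The summed signal of the muscle list, in multiples of the 75th percentile, was 188 and 105 on CD replicates 1 and 2 and 122 and 155 on the HFD arrays, and 18 of its 19 genes stood well above background throughout. That of the neuronal list was 34.1 and 18.4 in CD and 14.8 and 24.2 in HFD. In CD the sums of mesothelium (28.8 and 18.8) and gut mesenchyme (17.2 and 4.66) had the same order. Those of kidney and gonad stroma (229 and 263) and placenta (96.5 and 112) had the opposite order, against most of their tested genes. A sum is weighted to the brightest genes of a list, and which genes carried these sums was not counted. Actc1, the actin of heart and fetal skeletal muscle, had levels of 4.49 and 3.69 in CD and 3.83 and 4.02 in HFD, the same order of CD arrays as Acta2 and Des.

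Hepatocyte, erythroid and macrophage genes ran the other way. CD replicate 1 was above CD replicate 2 for 1 of 15 hepatoblast and hepatocyte genes (median gap -0.39), 1 of 12 erythroid genes (-0.48) and 0 of 8 macrophage genes (-0.46). After quantile normalization the gaps were smaller, with 3 of 15 above (-0.12), 3 of 12 above (-0.23) and 1 of 8 above (-0.35). Endothelial genes, with 4 of 10 above and a median gap of -0.10, were close to all genes. The summed hepatocyte signal was 1821 and 2826 in CD and 2212 and 2251 in HFD. For the 10 stellate and mesenchymal genes, that sum was 154 and 99.7 in CD and 113 and 120 in HFD, so its range in HFD lay inside that in CD. Most of this sum came from the bright probes of Acta2 and Dcn, so it says little about the other genes. The part of muscle, nerve, mesothelium or other neighboring tissue in the levels of the 10 genes was not tested.

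**Figure D4:**
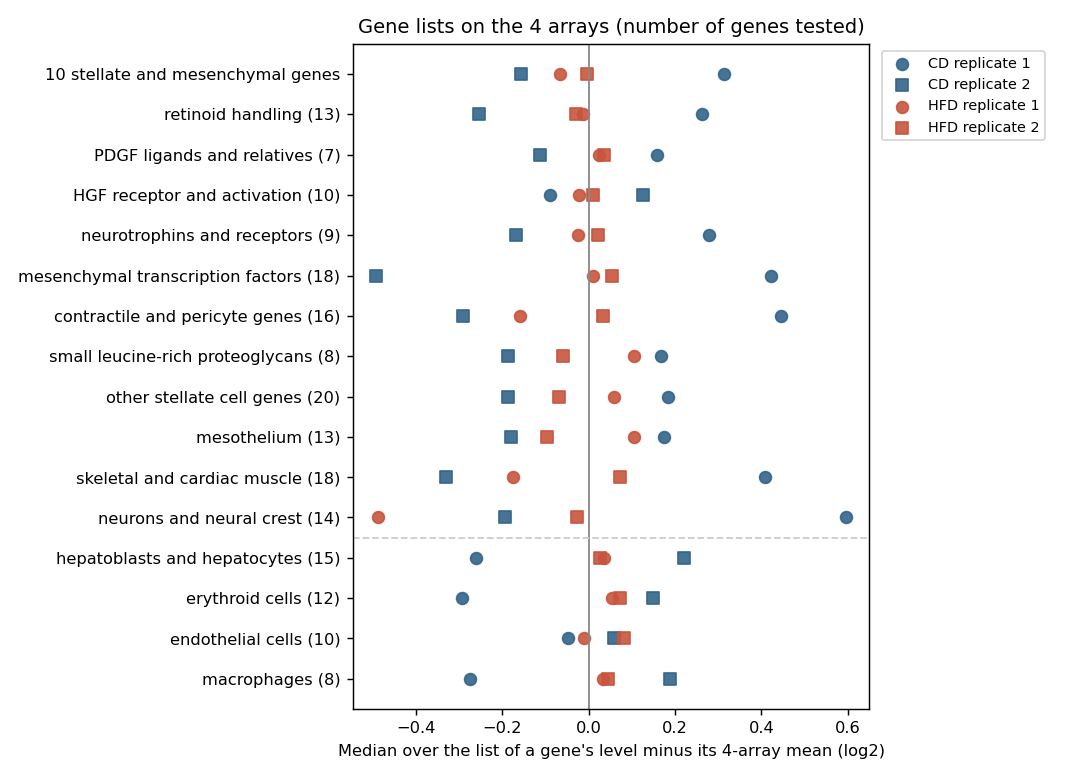
Median over a gene list of a gene's level minus its mean over the 4 arrays (log2), 1 marker per array. The number of tested genes is in parentheses, and lists of liver parenchyma, blood and vessels stand below the dashed line. The lists of reelin receptors, kidney and gonad stroma, placenta and gut mesenchyme are not drawn. CD replicate 1 lies at 0.31 and CD replicate 2 at -0.16 for the 10 stellate and mesenchymal genes, and the order of the CD arrays is reversed for hepatocyte, erythroid and macrophage genes.

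Between the diets, the lists of other tissues differed from the 10 genes in a few places. The median HFD minus CD difference was -0.055 for muscle, 0.038 for mesothelium, -0.013 for hepatocytes, 0.15 for erythroid cells, -0.020 for endothelial cells and 0.10 for macrophages, with 0 genes at an unadjusted p under 0.05 in any of these 6 lists. It was -0.62 for neurons and neural crest, with 3 of 14 genes lower at an unadjusted p under 0.05, beside 1.46% of all tested genes. That median was -0.00082 without CD replicate 1 and -0.28 without HFD replicate 1. It was -0.89 without CD replicate 2 and -0.70 without HFD replicate 2. The median was 0.64 for kidney and gonad stroma, with 2 of 11 genes past the cutoffs and higher, beside 0.291% of all genes. It fell to 0.16 without CD replicate 2, to 0.23 without HFD replicate 1 and to 0.28 without HFD replicate 2. It was -0.24 for placenta and -0.13 for gut mesenchyme, with 0 genes at that p. None of these genes passed after adjustment. Ngfr, which neural crest cells also express, had a difference of -0.14, within the spread of the arrays. A link between the 10 genes and the neuronal list was not tested.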

How the data were processed

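Liver RNA of 4 samples was analysed, with groups and replicate numbers taken from the sample labels and the fetal age from the study's text. Cy3-labeled cRNA was bound to Agilent mouse arrays, and the authors deposited spot intensity values from Feature Extraction 11.0.1.1 (per the submitters' processing notes), background-subtracted and detrended but not scaled between arrays, with flags deposited as scores of 0 or 1. They also deposited a table of normalized signal, in which each column is the intensity divided by 1 constant per array (within 0.1% for 100% of 41171 single-spot probes; column medians 0.276 to 0.305); its scale is linear and it is not centred.

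Here log2 intensities were averaged over the unflagged spots of a probe, and each array's 75th percentile was subtracted. Scaling of this kind assumes that the 75th percentile is alike in all livers. The filters follow the study's methods, except that the CV was taken on the linear scale where the methods name a log scale value. A probe was left out when any array placed it below the 20th percentile (14980 of 56596) or when it had a CV over 50% in both groups (284 probes). HFD was compared with CD by limma 3.58.1 (R 4.3.3; lmFit and eBayes, all 4 arrays, no covariates), with Benjamini-Hochberg adjustment over 41332 probes, and every p in the text is two-sided and from this fit unless named otherwise. Each p sets the diet difference against the spread between these samples within a diet, which limma moderates across probes. It does not describe the spread between dams or litters. Per array, 65.4% to 70.0% of spots were well above background, 39 to 58 were flagged and 0 saturated, and the SD of log2 differences was 0.58 between CD arrays and 0.34 between HFD arrays. The fit was tested on simulated data.

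Probes were named through transcripts of the RefSeq table for GRCm38.p6 (32989 of 56605 probes with 1 symbol, 0 with several, 23616 with none); the array was designed on another build, so no probe coordinates are given. The brightest probe stands for a gene. Named genes are all 10 members and, from each surrounding list, up to 2 genes with the smallest p among those well above background on all arrays whose groups did not overlap (1 such gene is not reported here); Alb, Hba-a1, Actc1 and the sex-linked genes serve as checks. The members and lists were chosen with earlier results of these data known. Same-numbered arrays did not deviate together (correlation -0.10). Alternatives are given in the closing section. Figures were drawn with matplotlib 3.10.9 in Python 3.11.15.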

Additional observations from a re-analysis of the deposited data

How the results depend on the processing

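Across 16 alternatives, limma or the alternative test called 0 of the 14 probes at the cutoffs and 0 after adjustment. The median over the 10 genes ran from -0.12 to -0.056 in those that kept all arrays, and from -0.36 (without CD replicate 2) to 0.089 (without CD replicate 1) when an array was left out. The number of probes at an unadjusted p under 0.05 was 0 with all arrays and 0 to 3 with an array left out; a lone array was then assumed to vary like the other group. With the replicate block, 0 of the 14 probes were called and the smallest unadjusted p was 0.293 (Reln), and over all probes 177 were called higher and 258 lower against 121 and 197 without it. No call of the 10 genes changed under the block. The sign turned for Lrat (0.00090) and Dcn (-0.067) with quantile normalization and for Hgf with the mean over its probes (-0.024). Leaving out an array gave differences from -0.56 to 0.36 for Des, -0.55 to 0.11 for Acta2, -0.47 to 0.20 for Pdgfra, -0.26 to 0.16 for Reln, -0.29 to 0.26 for Lrat, -0.39 to 0.52 for Dcn, -0.34 to 0.063 for Ngfr, -0.022 to 0.24 for Hgf and -0.053 to 0.23 for Lhx2, and for Pdgfrb, which kept its sign throughout, -0.49 to -0.038. The cause was not tested. Over all probes, the calls were 41 higher and 56 lower with the methods' t-test, 21 and 25 with its Welch form, 11 and 22 with normexp (1 probe adjusted), 373 and 478 with no filter, 72 and 168 with probes well above background, 843 and 383 without CD replicate 1, 255 and 466 without CD replicate 2, 439 and 432 without HFD replicate 1 (6 adjusted) and 190 and 464 without HFD replicate 2. Of 228 medians of the 19 other lists with all arrays kept, 1 moved by more than the spread between arrays (kidney and gonad stroma, 0.23 with normexp), as did 12 of 76 with an array left out. Of the 104 genes around the 10, the number at an unadjusted p under 0.05 was 0 in the reported fit. It was 1 in 5 alternatives with all arrays kept. This gene was Gfap in 3, Cspg4 with normexp and, named after its value was seen, Ntrk2 with the mean over probes. With a CD array left out the number rose, and so did the share over all probes. Normexp used the median brightness of spots. A block for slide or scan was not run, as there was 1 of each.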
